A study of Mus musculus with 6 samples.

Results

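Macrophages take up lipids from lipoproteins and dying cells, hold them in droplets and pass cholesterol on to acceptors outside the cell, and 10 genes of this route were examined in bone marrow–derived macrophages (BMDMs) that lacked or carried DRP1, the GTPase that divides mitochondria. The genes were chosen by name for their known roles, with earlier results of these data known: *Cd36* and *Lpl* for uptake, *Fabp4* and *Fabp5* as carriers, *Plin2* for storage, *Abca1*, *Abcg1* and *Apoe* for efflux, and *Nr1h3* and *Pparg* as regulators. All 10 were among the 36137 genes with a transcript in the files, and all 10 were among the 18506 genes tested, which had at least 10 counts over the 6 libraries. The study asked what macrophage DRP1 does in ischemia, for which hypoxia serum starvation (HSS) was the culture model. BMDMs were grown from marrow of adult mice, and on day 7 the medium was replaced with one free of serum for 8 h under 2.1% oxygen, as the sample labels give it. Knockout cells came from mice with floxed *Drp1* and 1 copy of LysM-Cre (LysM-Cre+/- Drp1 fl/fl, Drp1 KO), and control cells from LysM-Cre+/- Drp1+/+ mice (WT). Poly(A) RNA of 3 libraries per genotype was sequenced. Both groups had received HSS and carried the Cre allele, which is driven by the lysozyme promoter of myeloid cells, and no library of cells kept in normal oxygen was analysed here. The sample labels call the 3 libraries of a genotype biological replicates. The methods describe pooling the marrow of a pair of mice without saying whether each replicate had a pool of its own, so the p-values measure the spread between these libraries.

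Fatty acids reach a macrophage through the scavenger receptor CD36 and through lipoprotein lipase, which frees them from triglyceride-rich particles, and are then ferried through the cytosol by fatty acid–binding proteins. What is not burned is stored in droplets coated by perilipins, and excess cholesterol leaves through the ABC transporters ABCA1 and ABCG1 to apolipoprotein A-I, HDL and apolipoprotein E. The oxysterol receptor LXRα, encoded by *Nr1h3*, turns on the efflux genes, and the fatty acid receptor PPARγ, encoded by *Pparg*, turns on *Cd36*, *Fabp4* and *Plin2*.

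Libraries held 23389488 to 32231206 estimated counts. *Dnm1l*, which encodes DRP1, had 72.8, 69.9 and 75.1 CPM (counts scaled to the normalized library size) in WT libraries 1 to 3 and 58.8, 60.7 and 66.3 CPM in Drp1 KO libraries 1 to 3. The groups did not overlap, and the log2 fold change of Drp1 KO against WT was -0.23 with a standard error of 0.0921 (adjusted p = 0.248, from edgeR's quasi-likelihood test with Benjamini-Hochberg adjustment over all genes tested). Whether reads came from the floxed exons cannot be read from a gene total. None of 9 macrophage markers was at 0 in all libraries, and their summed level was 13590 to 15000 CPM in WT BMDMs against 12120 to 14550 CPM in Drp1 KO BMDMs. Of the 9, 1 was higher and 2 were lower at an adjusted p under 0.05 (edgeR), beside 2.29% and 1.06% of all genes tested. *Csf1r*, the CSF1 receptor, and *Mertk* were lower in Drp1 KO BMDMs (log2 fold change -0.52 for each, adjusted p = 0.034 and 0.0236, edgeR). *Fcgr1*, a receptor for IgG, was higher (1.34, adjusted p = 0.000322, edgeR). Neutrophil markers summed to 7.50 to 22.2 CPM in WT libraries and 21.2 to 49.3 CPM in Drp1 KO libraries, with 7 of the 7 tested higher, 0 of them past an adjusted p of 0.05 (edgeR) and *Ly6g* at 0 throughout. Of these 7, 4 had an unadjusted p under 0.05 (16.4% of all genes tested). In DESeq2 2 were past the adjusted threshold (8.8% of the genes to which it gave an adjusted p) and 4 with the replicate block (12% of all genes). Osteoclast markers summed to 76.4 to 87.4 CPM in WT libraries and 85.6 to 118.3 CPM in Drp1 KO libraries, with 2 of the 5 tested higher and 3 lower. *Ctsk*, *Ocstamp*, *Dcstamp* and *Nfatc1* had log2 fold changes of -0.04, -0.23, -0.61 and 0.03 and did not pass (edgeR). The 1 of the 5 that passed, beside 3.36% of all genes tested, was *Acp5*, the tartrate-resistant acid phosphatase. It had 15.6, 7.91 and 6.41 CPM in WT libraries 1 to 3 and 45.9, 23.1 and 36.4 CPM in Drp1 KO libraries 1 to 3, without overlap (log2 fold change 1.82, adjusted p = 0.0153, edgeR). Dendritic cell markers summed to 44.3 to 64.1 CPM in WT libraries and 32.02 to 51.34 CPM in Drp1 KO libraries, with 4 of the 6 tested lower and none past the threshold, 2 of them at an unadjusted p under 0.05 (edgeR) and 0 in DESeq2. Sums were 14.0 to 21.6 and 13.7 to 16.8 CPM for fibroblast markers and 7.77 to 9.45 and 7.90 to 11.4 CPM for lymphocyte markers, in WT and Drp1 KO libraries in that order. In bulk RNA, fewer cells of a type and less RNA per cell cannot be told apart, and the part of these markers in the results that follow was not tested.

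Of the 10 lipid genes, *Abca1* alone differed between the genotypes at an adjusted p under 0.05 (edgeR), and it was lower in Drp1 KO BMDMs by 29.7%. Among all genes tested, 3.36% passed that threshold. *Apoe* lay lower and *Abcg1* higher in each Drp1 KO library than in any WT library without passing it, so the 3 efflux genes did not share a direction. With the study's criteria, a p under 0.05 without adjustment and a level more than 25% higher, or lower by the same factor, 1 of the 10 genes was called higher (7.19% of all genes tested) and 2 were called lower (5.48%), 3 of 10 in all beside 12.7%. Of these calls that of *Abcg1* was lost, and *Fabp4* was called lower in its place, in 7 of the 8 other settings that kept all libraries, DESeq2 and the replicate block among them, so that 0 were higher and 3 lower. With length-scaled counts both were called. In CPM the groups did not overlap for these 3 of the 10 genes, against 21.9% of all genes tested, 11.7% higher and 10.3% lower. In the deposited TPM values they did not overlap for 5 of the 10, these 3 with *Fabp4* and *Pparg*, against 21.7% of all genes tested. For *Pparg* this depended on a short retained-intron transcript with few counts. The uptake genes and *Fabp5* had fold changes near 1, and over the 10 genes 5 were higher and 5 lower, with a median log2 fold change of -0.0049 beside 0.0046 for all genes tested. For a single gene, an exact two-sided permutation test over 3 against 3 libraries can reach no p under 0.1, which was the value for *Abca1*, *Abcg1* and *Apoe*.

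The replicate numbers may pair the libraries, on the evidence of the data only, which does not settle it. Libraries of the same number deviated together from their group means (r = 0.547, 0.223 and 0.374 for numbers 1 to 3). WT library 2, however, deviated more with Drp1 KO library 3 (r = 0.344) than with Drp1 KO library 2. In a fit with the replicate number as a block, 5 of the 10 genes had an adjusted p under 0.05 (edgeR), namely *Abca1*, *Apoe*, *Abcg1*, *Fabp4* and *Pparg*. The same block raised the number of calls among all genes from 621 to 2212, or 12% of those tested. With DESeq2 2 of the 10 genes passed, beside 8.8% of the genes to which it gave an adjusted p.

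**Figure D1:**
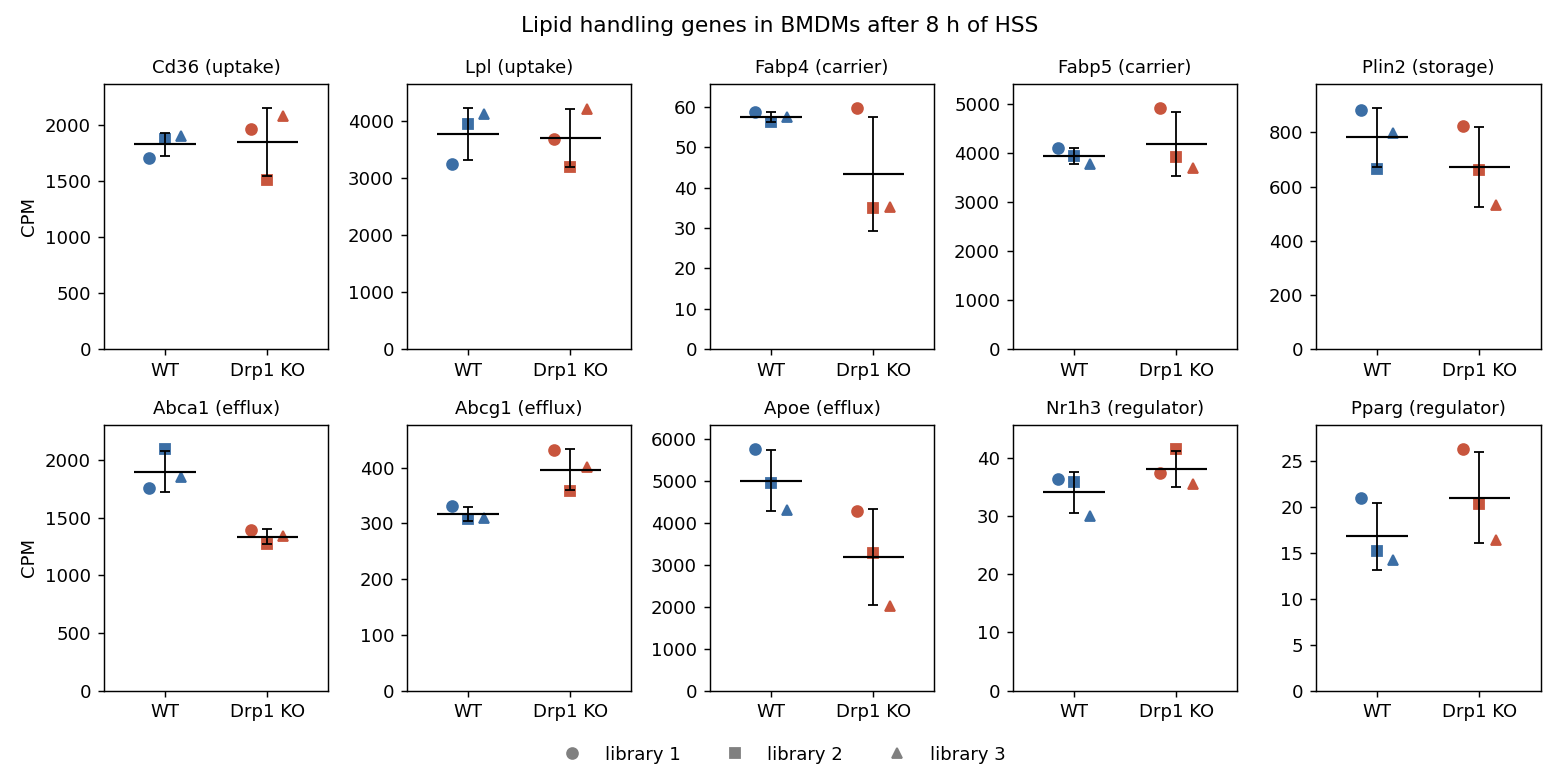
Level of each of the 10 genes in CPM (vertical axes, from 0) in WT and Drp1 KO BMDMs after HSS, with 1 symbol per library, the mean as a line and the SD as a bar (n = 3 each). The groups are apart for Abca1 and Apoe, lower in Drp1 KO, and for Abcg1, higher in Drp1 KO, and overlap for the other 7 genes.

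**Figure D2:**
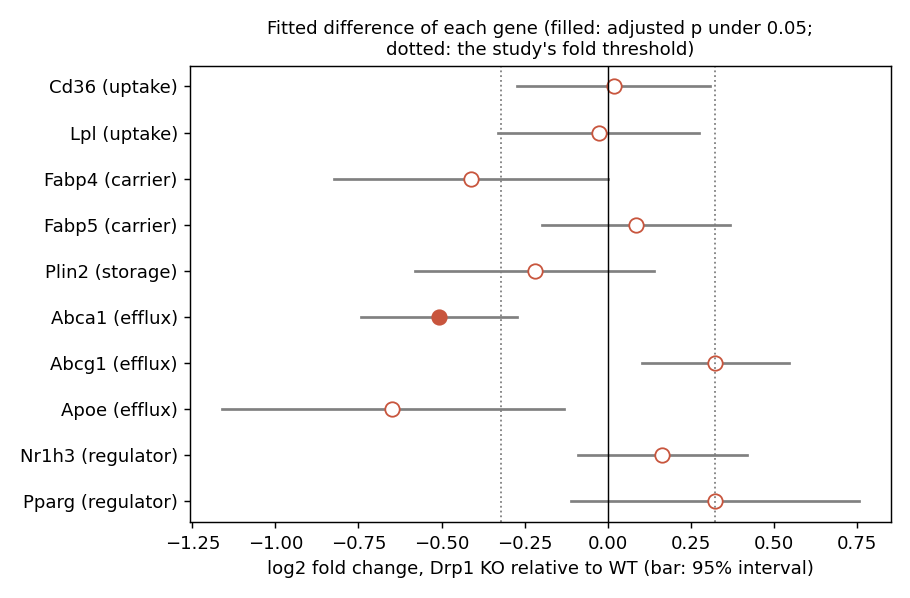
Fitted log2 fold change of Drp1 KO against WT BMDMs (horizontal axis) with its 95% interval for each gene, filled where the edgeR adjusted p is under 0.05, with dotted lines at the study's threshold of 25% higher and the same factor lower. The intervals of Abca1, Abcg1 and Apoe do not include 0, and Abca1 is the filled symbol.

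Per length of transcript, *Fabp5* and *Apoe* led the order of the deposited TPM values, which are scaled by transcript length. Mean TPM over the 6 libraries was 7776 for *Fabp5*, 6425 for *Apoe*, 1400 for *Lpl*, 1279 for *Cd36*, 1027 for *Plin2*, 220.8 for *Abca1*, 113 for *Abcg1*, 111.9 for *Fabp4*, 24.6 for *Nr1h3* and 18.4 for *Pparg*. Neighbours in this order whose libraries overlapped in both genotypes were *Lpl* and *Cd36*, and *Cd36* and *Plin2*. *Fabp5* and *Apoe* overlapped in WT libraries but not in Drp1 KO libraries, where *Fabp5* had the higher level, and *Nr1h3* and *Pparg* overlapped in Drp1 KO libraries only. *Abcg1* and *Fabp4* likewise overlapped in Drp1 KO libraries only, and *Fabp4* had the higher level in each WT library. Together the 10 genes made up 2.08%, 2.03% and 2.01% of the TPM of WT libraries 1 to 3 and 1.90%, 1.57% and 1.45% of that of Drp1 KO libraries 1 to 3. As a share of counts, which is not per length, the values were 1.72% to 1.83% in WT libraries and 1.46% to 1.67% in Drp1 KO libraries. On both scales the Drp1 KO shares lay below the WT shares without overlap. Such a sum follows its most abundant genes and does not describe each of the 10. The largest fall in mean level among them, in TPM and in CPM, was that of *Apoe*, which did not pass (adjusted p = 0.187, edgeR). Mean TPM of *Apoe* was 8191 ± 872.9 in WT and 4659 ± 1597 in Drp1 KO libraries (SD, n = 3 libraries each), and that of *Fabp5* was 7823 ± 111 and 7728 ± 831.5.

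*Cd36* (ENSMUSG00000002944, GRCm39 chromosome 5, 17986432 to 18094067, minus strand) encodes the receptor for oxidised lipoproteins and long-chain fatty acids. Its level was 1710, 1879 and 1904 CPM in WT libraries 1 to 3 and 1967, 1510 and 2085 CPM in Drp1 KO libraries 1 to 3. Drp1 KO libraries held both the highest and the lowest level, so the groups overlapped. The means were 1831 ± 105.7 and 1854 ± 304 CPM (SD, n = 3 libraries each), a log2 fold change of 0.02 (95% interval -0.27 to 0.31, adjusted p = 0.979, edgeR).

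The gene total hid a difference between *Cd36* transcripts that start at different places, which was noticed after the values were seen and is given as a description with no test. Transcripts Cd36-203 and Cd36-205 start upstream, at 18093799 to 18093916, and transcripts Cd36-201 and Cd36-206 start 52841 bases downstream of the farther of these, at 18041075. The upstream start had 425.6, 341.4 and 420 CPM in WT libraries 1 to 3 and 874, 514.4 and 768.8 CPM in Drp1 KO libraries 1 to 3. Each Drp1 KO library lay above each WT library. The means, 395.7 ± 47.1 and 719 ± 185 CPM (SD, n = 3 libraries each), stood in a ratio of 1.82. The downstream start had 1267, 1514 and 1463 CPM in WT libraries and 1070, 980.4 and 1292 CPM in Drp1 KO libraries, with the highest Drp1 KO library above the lowest WT library. Its means were 1415 ± 130.6 and 1114 ± 160.6 CPM (SD, n = 3 libraries each), a ratio of 0.787. As a share of *Cd36* counts, the upstream start took 24.9%, 18.2% and 22.1% in WT libraries and 44.4%, 34.1% and 36.9% in Drp1 KO libraries, without overlap. A further start at 18054896 took 1.12% on average in WT BMDMs and 1.1% in Drp1 KO BMDMs. The shares rest on kallisto's assignment of reads that fit several transcripts, whose own error the files used here do not give.

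**Figure D3:**
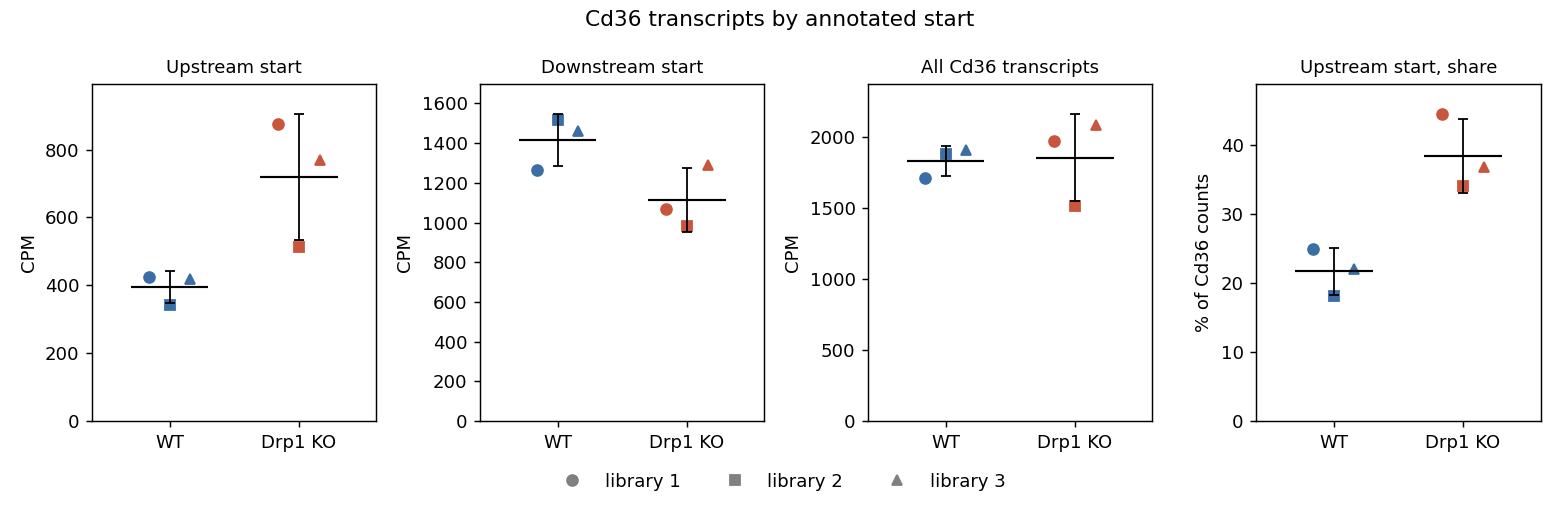
Cd36 counts by annotated start in WT and Drp1 KO BMDMs, in CPM for the upstream start, the downstream start and all transcripts, and as the upstream share of Cd36 counts in percent (vertical axes, from 0), with 1 symbol per library, mean and SD (n = 3 each). The upstream share is 18.2% to 24.9% in WT libraries and 34.1% to 44.4% in Drp1 KO libraries, while the gene totals overlap.

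Because the transcripts differ in where they begin, 250 bases near each of these starts are printed. Both were read from GRCm39 on the minus strand. The first, chr5:18094068-18094317, ends at the outermost annotated start of the gene, 151 bases short of the farthest start of the upstream transcripts quantified here, and the bases between, which the annotation places in an exon, were not searched. The second, chr5:18041076-18041325, ends at the downstream start. Capitals mark the hexamer AGGTCA, the core of sites bound by PPARγ and LXRα with their partner RXR, read on either strand.
Cd36 before the outermost start: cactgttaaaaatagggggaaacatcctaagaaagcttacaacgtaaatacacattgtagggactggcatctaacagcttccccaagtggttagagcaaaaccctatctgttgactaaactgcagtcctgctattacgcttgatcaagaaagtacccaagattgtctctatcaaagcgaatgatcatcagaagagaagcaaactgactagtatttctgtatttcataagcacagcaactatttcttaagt
Cd36 before the downstream start: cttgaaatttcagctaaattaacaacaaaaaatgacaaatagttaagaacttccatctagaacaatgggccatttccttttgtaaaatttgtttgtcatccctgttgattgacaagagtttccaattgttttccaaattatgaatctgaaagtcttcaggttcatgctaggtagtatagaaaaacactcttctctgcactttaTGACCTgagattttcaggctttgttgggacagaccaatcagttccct
The downstream window held AGGTCA once, on the reverse strand and 47 bases before the start, and the window before the outermost start held none, which says nothing of the bases next to the quantified upstream starts. Of 21770 windows of the same length before the starts of protein-coding genes, 13.1% held it on either strand. Neither window held a direct repeat of it with 1 base between the copies, the form PPARγ binds with RXR, which 0.0367% of the windows held. A loose form of that repeat, with the first letter of both copies and the fifth letter of the first copy left free, was in neither window and in 0.28% of all windows. G and C made up 38.8% of the outermost and 34.8% of the downstream window.

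*Lpl* (ENSMUSG00000015568, chromosome 8, 69284603 to 69360100, plus strand) encodes the secreted lipase that breaks down lipoprotein triglycerides. Its level was 3252, 3939 and 4118 CPM in WT libraries 1 to 3 and 3683, 3197 and 4214 CPM in Drp1 KO libraries 1 to 3. The groups overlapped over almost their whole range. The fitted log2 fold change was -0.03 (95% interval -0.33 to 0.28, adjusted p = 0.966, edgeR).

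*Fabp4* (ENSMUSG00000062515, chromosome 3, 10268785 to 10273737, minus strand), the fatty acid carrier shared with adipocytes, had 58.7, 56.2 and 57.5 CPM in WT libraries 1 to 3 and 59.7, 35.0 and 35.2 CPM in Drp1 KO libraries 1 to 3. In CPM, Drp1 KO library 1 lay above every WT library, and Drp1 KO libraries 2 and 3 lay below every WT library. In TPM, which accounts for effective transcript length, the levels were 132.6, 133.2 and 145.2 in WT libraries 1 to 3 and 119.1, 72.5 and 69.0 in Drp1 KO libraries 1 to 3, so every Drp1 KO library lay below every WT library. The log2 fold change was -0.41 with a standard error of 0.185 (edgeR, adjusted p = 0.305). With length-scaled counts it was -0.56 and did not pass (adjusted p = 0.203, edgeR), and without Drp1 KO library 2 or 3 it was -0.28 in either case. It passed with libraries paired by number (-0.46, adjusted p = 0.0437, edgeR) and without Drp1 KO library 1 (-0.72, adjusted p = 0.00392, edgeR), and the adjusted p ran from 0.00392 to 0.647 in the 14 other settings. Between libraries of the same number, the log2 ratios of Drp1 KO to WT were 0.02, -0.68 and -0.71. Defining adipocyte genes were near absent: *Adipoq* and *Lep* were at 0 in all 6 libraries, and the 8 adipocyte markers summed to 1.64 to 1.84 CPM in WT libraries and 1.59 to 1.78 CPM in Drp1 KO libraries. The retained-intron transcript Fabp4-202 took 11%, 10.4% and 10.9% of the gene's counts in WT libraries and 14.0%, 17.3% and 25.7% in Drp1 KO libraries, without overlap and with no test.

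*Fabp5* (ENSMUSG00000027533, chromosome 3, 10077602 to 10081674, plus strand) encodes the more abundant of the carriers in these cells. It had 4095, 3930 and 3770 CPM in WT libraries 1 to 3 and 4913, 3903 and 3695 CPM in Drp1 KO libraries 1 to 3. Drp1 KO libraries held both the highest and the lowest level. This was a log2 fold change of 0.09 (95% interval -0.20 to 0.37, adjusted p = 0.832, edgeR). The annotation lists 5 processed pseudogenes that match 336 to 409 of its 993 transcript bases at 93.6% to 98.3% identity, and they held 4.6 CPM in WT BMDMs against 4.48 CPM in Drp1 KO BMDMs in sum, and how reads shared with them were split is uncertain. Per length, *Fabp5* exceeded *Fabp4* 58.7, 58.1 and 54.7 times in WT libraries and 72.9, 101 and 104 times in Drp1 KO libraries, a ratio without overlap between the genotypes.

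*Plin2* (ENSMUSG00000028494, chromosome 4, 86565912 to 86588459, minus strand) encodes the droplet coat protein of macrophages. Its level was 883, 666.9 and 796.6 CPM in WT libraries 1 to 3 and 824.1, 660.6 and 530.7 CPM in Drp1 KO libraries 1 to 3. Each Drp1 KO library was lower than the WT library of its number, by a log2 ratio of -0.10, -0.01 and -0.59, but the groups overlapped. The log2 fold change was -0.22 (95% interval -0.58 to 0.14, adjusted p = 0.58, edgeR), and with the replicate block the adjusted p was 0.191. It was -0.07 with Drp1 KO library 3 left out (adjusted p = 0.898, edgeR) and -0.405 with library 1 of that genotype left out (adjusted p = 0.167, edgeR). The transcript Plin2-201 took 77.2% to 80.7% of *Plin2* counts in WT libraries and 73.1% to 76.9% in Drp1 KO libraries.

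*Abca1* (ENSMUSG00000015243, chromosome 4, 53030787 to 53159900, minus strand) encodes the transporter that loads cholesterol onto lipid-poor apolipoprotein A-I. Its level was 1758, 2097 and 1851 CPM in WT libraries 1 to 3 and 1398, 1269 and 1343 CPM in Drp1 KO libraries 1 to 3. Every Drp1 KO library lay below every WT library. The level fell from 1902 ± 175.1 to 1337 ± 64.8 CPM (SD, n = 3 libraries each), a log2 fold change of -0.51 with a standard error of 0.106 (edgeR, 95% interval -0.74 to -0.27, adjusted p = 0.0297). One transcript, Abca1-201, held at least 99.96% of the counts in each library, so the difference was one of that transcript. The log2 fold change stayed between -0.56 and -0.45 over the 14 other settings, and the adjusted p ran from 0.00017 with DESeq2 to 0.175. Leaving out WT library 2 or 3 ended the call (adjusted p = 0.175 and 0.108, edgeR), as did leaving out Drp1 KO library 2 or 3 (adjusted p = 0.135 and 0.0892, edgeR).

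*Abcg1* (ENSMUSG00000024030, chromosome 17, 31276649 to 31336969, plus strand) encodes the transporter that passes cholesterol on to HDL. Its level was 331.8, 308.6 and 310.5 CPM in WT libraries 1 to 3 and 431.2, 357.8 and 401.1 CPM in Drp1 KO libraries 1 to 3. Every Drp1 KO library lay above every WT library. The means were 317 ± 12.9 and 396.7 ± 36.9 CPM (SD, n = 3 libraries each), a log2 fold change of 0.32 with a standard error of 0.0997 (edgeR, adjusted p = 0.124). With the replicate block the gene passed (0.32, adjusted p = 0.016, edgeR), and in the 13 remaining settings it did not, with an adjusted p of up to 0.423. Its fold change of 1.251 was just over the study's threshold. In TPM the retained-intron transcript Abcg1-202 had 27.6 ± 3.36 in WT and 45.6 ± 19.3 in Drp1 KO libraries. The coding transcript Abcg1-201 had 63.4 ± 3.24 and 73.5 ± 7.23 TPM (SD, n = 3 libraries each, no test).

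With one transporter lower and the other higher, the ratio of *Abca1* to *Abcg1* was also compared. Per length it was 2.38, 2.90 and 2.72 in WT libraries 1 to 3 and 1.5, 1.49 and 1.24 in Drp1 KO libraries 1 to 3. In CPM, where transcript length is not divided out, it was 5.30, 6.80 and 5.96 in WT and 3.24, 3.55 and 3.35 in Drp1 KO libraries. The groups did not overlap on either scale, and no test was run on the ratio, which was formed after the values were seen. The *Abcg1* values in the ratio include its retained-intron transcript.

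Because both transporters are known LXR targets and lay in opposite directions, the 250 bases before their outermost annotated starts are printed, from GRCm39. *Abca1* is chr4:53159901-53160150 on the minus strand and *Abcg1* is chr17:31276399-31276648 on the plus strand. Capitals mark matches, on either strand, to the TATA box, spelled TATAAA. They mark as well the GC box, for which the letters searched were GGGCGG, and the E-box, for which they were CACGTG. The last motif marked is a loose form of the direct repeat of AGGTCA with 4 bases between the copies, the form LXRα binds with RXR, with the first letter of both copies and the fifth letter of the first copy left free. The loose form was added after the *Abca1* sequence had been seen.
Abca1 promoter window: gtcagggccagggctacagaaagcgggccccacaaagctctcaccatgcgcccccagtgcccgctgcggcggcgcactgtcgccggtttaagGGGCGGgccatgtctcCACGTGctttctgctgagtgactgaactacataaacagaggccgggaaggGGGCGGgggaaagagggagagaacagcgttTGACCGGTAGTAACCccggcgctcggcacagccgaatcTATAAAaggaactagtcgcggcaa
Abcg1 promoter window: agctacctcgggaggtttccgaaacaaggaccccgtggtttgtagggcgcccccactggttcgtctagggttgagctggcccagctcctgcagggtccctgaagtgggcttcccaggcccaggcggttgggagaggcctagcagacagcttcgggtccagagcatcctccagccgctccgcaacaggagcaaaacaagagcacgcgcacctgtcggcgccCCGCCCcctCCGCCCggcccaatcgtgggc
The *Abca1* window held the TATA box 24 bases before the start, the GC box 92 and 158 bases before it, and the E-box, which reads the same on both strands, at 142 bases. It also held the loose repeat, on the reverse strand and 62 bases before the start, which 0.129% of the 21770 windows of this length held. The *Abcg1* window held the GC box on the reverse strand 21 and 30 bases before the start and none of the other motifs. The TATA box was in 11.9% of all windows, the GC box in 36.3% and the E-box in 6.26%, and the exact repeat with 4 bases between was in none of the 4 windows printed and in 0 of the 21770. G and C made up 62% of the *Abca1* and 66.8% of the *Abcg1* window. A match describes the letters in a window and is not a measured binding site.

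*Apoe* (ENSMUSG00000002985, chromosome 7, 19430034 to 19434947, minus strand) encodes the apolipoprotein that macrophages secrete as a cholesterol acceptor. Its level was 5768, 4957 and 4305 CPM in WT libraries 1 to 3 and 4296, 3280 and 2018 CPM in Drp1 KO libraries 1 to 3. Every Drp1 KO library lay below every WT library, the closest being Drp1 KO library 1 and WT library 3. The means were 5010 ± 733.1 and 3198 ± 1141 CPM (SD, n = 3 libraries each), a log2 fold change of -0.65 with a standard error of 0.232 (edgeR, 95% interval -1.16 to -0.13, adjusted p = 0.187). Within each genotype the libraries stood in the same order, and the log2 ratios between libraries of the same number were -0.43, -0.60 and -1.09. With those pairs as a block the log2 fold change was -0.70 and passed (adjusted p = 0.00271, edgeR). Without Drp1 KO library 3, the lowest, it was -0.40 and did not pass (adjusted p = 0.312, edgeR). It passed with DESeq2 (adjusted p = 0.039), with no filter beyond 1 count (0.0239, edgeR) and without Drp1 KO library 1 (log2 fold change -0.93, adjusted p = 0.0354, edgeR), and in the other 10 settings it did not, with an adjusted p of up to 0.385.

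**Figure D4:**
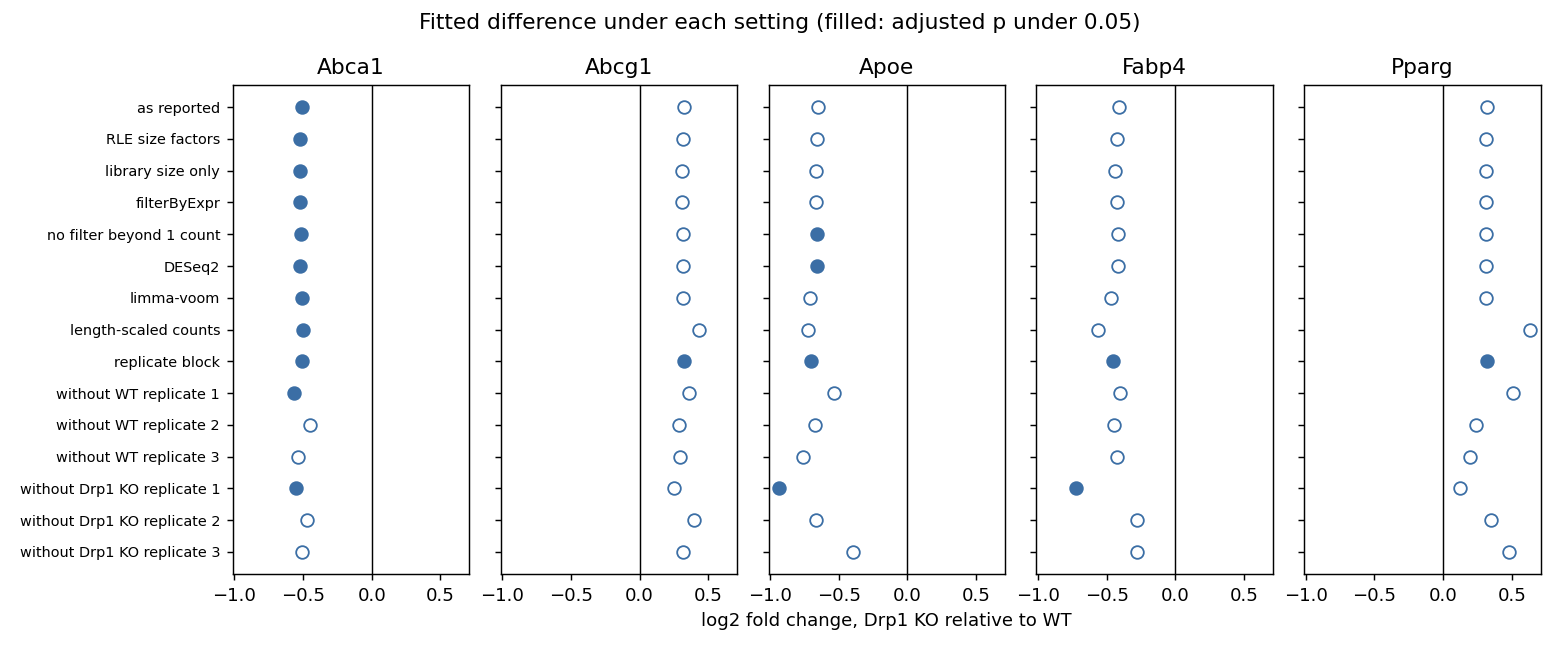
Log2 fold change of Drp1 KO against WT BMDMs (horizontal axes) for the 5 genes that passed in at least 1 setting, as reported and under each of the 14 other settings (lines of symbols), filled where the adjusted p is under 0.05. No gene changes direction, Abca1 is filled in 10 of the 14 other settings, Apoe in 4, Fabp4 in 2 and Abcg1 and Pparg in 1 each.

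*Nr1h3* (ENSMUSG00000002108, chromosome 2, 91014394 to 91033417, minus strand), which encodes LXRα, had 36.3, 35.9 and 29.9 CPM in WT libraries 1 to 3 and 37.4, 41.5 and 35.4 CPM in Drp1 KO libraries 1 to 3. Each Drp1 KO library was higher than the WT library of its number, and the groups overlapped. Drp1 KO differed from WT by a log2 fold change of 0.16 (95% interval -0.09 to 0.42, adjusted p = 0.55, edgeR), which was 0.07 without WT library 3 (adjusted p = 0.905). Exons of *Nr1h3* overlap those of the antisense gene *Acp2*, which held 285.6 CPM in WT BMDMs against 287.6 CPM in Drp1 KO BMDMs, and whether strand was used in the authors' quantification is not given in the sources used here.

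*Pparg* (ENSMUSG00000000440, chromosome 6, 115337675 to 115468268, plus strand), which encodes PPARγ, had 21.0, 15.2 and 14.2 CPM in WT libraries 1 to 3 and 26.3, 20.4 and 16.4 CPM in Drp1 KO libraries 1 to 3. Each Drp1 KO library was again higher than the WT library of its number, and in CPM the groups overlapped. In TPM the levels were 15.8, 14.7 and 14.3 in WT libraries 1 to 3 and 25.2, 20.1 and 20.1 in Drp1 KO libraries 1 to 3, without overlap. Part of these TPM came from Pparg-203, a retained-intron transcript of 213 bases with 1.12 to 8.3 counts per library. It had 0.88, 2.16 and 2.00 TPM in WT libraries 1 to 3 and 6.75, 5.375 and 3.65 TPM in Drp1 KO libraries 1 to 3. Without that transcript the TPM of the groups overlapped. The log2 fold change of the gene was 0.32 (95% interval -0.11 to 0.76, adjusted p = 0.472, edgeR), and with the replicate block the adjusted p was 0.0494. With length-scaled counts the log2 fold change was 0.63 and did not pass (adjusted p = 0.071, edgeR), and without Drp1 KO library 1 it was 0.12 (adjusted p = 0.8, edgeR). Its transcript Pparg-202 took 59.3% to 65.7% of the counts in WT libraries and 33.9% to 56.3% in Drp1 KO libraries, at 5.57 to 13.8 CPM per library.

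The wider route was described with 99 other genes in 10 lists, of which 86 were tested. At an adjusted p under 0.05 (edgeR), 3 were higher in Drp1 KO BMDMs (2.29% of all genes tested) and 6 were lower (1.06% of all genes tested). In total 30 lay higher and 56 lower, beside 9365 and 9141 of all 18506 genes, with a median log2 fold change of -0.104 beside 0.0046 for all genes tested. With the study's criteria 10 of the 86 were called higher, beside 7.19% of all genes tested, and 15 were called lower, beside 5.48%. With the replicate block 24 of the 86 passed, beside 12% of all genes tested.

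Among 10 further lipoprotein receptors and fatty acid transporters, 3 lay higher and 7 lower, and 1 rose and 1 fell at an adjusted p under 0.05 (edgeR), beside 2.29% and 1.06% of all genes tested. In DESeq2 2 of them passed and with the replicate block 3, beside 8.8% and 12% of the genes to which each gave an adjusted p. *Marco*, a scavenger receptor for modified lipoproteins and bacteria, had 253.7, 124 and 82.7 CPM in WT libraries 1 to 3 and 41.4, 21.9 and 24.7 CPM in Drp1 KO libraries 1 to 3. It fell by 2.39 on the log2 scale with a standard error of 0.38 (edgeR, adjusted p = 0.00799), with the WT libraries spread over a wide range that stayed above the Drp1 KO libraries, and without Drp1 KO library 2 the adjusted p was 0.0575. *Msr1*, the class A scavenger receptor that takes up acetylated LDL, rose from 536.6 ± 30.1 to 737.4 ± 54.2 CPM (SD, n = 3 libraries each, log2 fold change 0.46, adjusted p = 0.034, edgeR). The receptors *Cd36*, *Msr1* and *Marco* thus had a log2 fold change of 0.02, 0.46 and -2.39. *Cxcl16*, whose membrane form also binds oxidised lipoproteins, had -0.20 (adjusted p = 0.49, edgeR).

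Of 4 tested partners of lipoprotein lipase, 1 fell, beside 1.06% of all genes tested. *Angptl4*, a secreted inhibitor of the lipase and a PPAR target, had 15.5, 12.4 and 16.2 CPM in WT libraries 1 to 3 and 9.62, 7.67 and 6.35 CPM in Drp1 KO libraries 1 to 3, a log2 fold change of -0.91 with a standard error of 0.176 (edgeR, adjusted p = 0.0222). The groups did not overlap, and the call ended without WT library 3 (adjusted p = 0.105, edgeR) and with either of Drp1 KO libraries 2 and 3 left out (adjusted p = 0.103 and 0.0697, edgeR). *Sel1l*, needed for the lipase to leave the endoplasmic reticulum, had a log2 fold change of 0.02, and *Apoc2*, its activator, -0.27 (adjusted p = 0.959 and 0.466, edgeR).

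None of the 22 droplet and storage genes tested passed an adjusted p of 0.05 (edgeR), while 10 had an unadjusted p under 0.05 (16.4% of all genes tested). With DESeq2 2 passed (8.8% of the genes to which it gave an adjusted p) and with the replicate block 5 (12% of all genes). By the study's criteria 6 of the 22 were called higher and 1 lower, beside 7.19% and 5.48% of all genes tested, and the groups did not overlap for 10 of the 22, beside 21.9%. *Soat1*, which esterifies cholesterol for storage, had 1949 ± 119 CPM in WT BMDMs against 1742 ± 198 CPM in Drp1 KO BMDMs (SD, n = 3 libraries each, adjusted p = 0.55, edgeR). *Hilpda*, a hypoxia-induced droplet protein that inhibits lipolysis, had 66.3 ± 13.4 and 91.6 ± 23.8 CPM (SD, n = 3 libraries each), a log2 fold change of 0.46 that passed only with the replicate block (adjusted p = 0.253 without it and 0.00532 with it, edgeR) and was 0.24 without Drp1 KO library 1. Of 8 genes of lipolysis and lysosomal release, 1 rose, beside 2.29% of all genes tested. It was *Abhd5*, the co-activator of triglyceride lipase, which rose from 32.4 ± 0.599 to 43.9 ± 0.892 CPM (SD, n = 3 libraries each, log2 fold change 0.44, adjusted p = 0.0284, edgeR), and 3 of the 8 passed with DESeq2 and 3 with the replicate block. With length-scaled counts its log2 fold change was 0.21 and it did not pass (adjusted p = 0.542). *Lipa*, the lysosomal acid lipase, and *Nceh1*, a cholesterol ester hydrolase, had -0.06 and 0.11 (adjusted p = 0.831 and 0.808, edgeR).

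Of 12 other genes listed as LXR targets, 5 lay higher and 7 lower, and 1 rose and 1 fell at an adjusted p under 0.05 (edgeR), beside 2.29% and 1.06% of all genes tested. In DESeq2 3 passed and with the replicate block 3, beside 8.8% and 12% of the genes to which each gave an adjusted p. *Smpdl3a*, a phosphodiesterase whose induction by LXR is known from human blood cells rather than mouse cells, had 371.7, 329.6 and 363.8 CPM in WT libraries 1 to 3 and 666.2, 614.6 and 545.8 CPM in Drp1 KO libraries 1 to 3. It rose by a log2 fold change of 0.78 with a standard error of 0.106 (edgeR, adjusted p = 0.00367) and passed in each of the 14 other settings. *Mertk*, a receptor for the engulfment of dying cells that is also a macrophage marker, fell from 248.9 ± 21.1 to 173.1 ± 14.3 CPM (SD, n = 3 libraries each, log2 fold change -0.52, adjusted p = 0.0236, edgeR). *Cd5l*, a secreted macrophage protein, had a log2 fold change of 0.10 (adjusted p = 0.82, edgeR).

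Of 11 tested PPAR targets outside the 10 genes, 9 lay lower, beside 9141 of all 18506 genes, and 1, *Angptl4*, passed, beside 3.36% of all genes tested. *Ucp2*, a mitochondrial carrier, had a log2 fold change of -0.32 (adjusted p = 0.267, 0.0198 with the replicate block and 0.0494 without Drp1 KO library 1, edgeR). With length-scaled counts it was -0.03 (adjusted p = 0.966, edgeR). *Cpt1a*, which admits fatty acids to mitochondria, had a log2 fold change of -0.24 (adjusted p = 0.29, edgeR). *Angptl4* stands in both the lipase and the PPAR list, so its call is counted in each. In DESeq2 2 of the 11 passed and with the replicate block 4, beside 8.8% and 12% of the genes to which each gave an adjusted p. None of 11 receptor partners and cofactors passed (edgeR), with 1 at an unadjusted p under 0.05, 1 past the adjusted threshold in DESeq2 and 2 with the replicate block, beside 16.4%, 8.8% and 12% of the genes given such a p. Among them were *Nr1h2*, which encodes LXRβ (log2 fold change -0.13), and the corepressor gene *Ncor1* (-0.21). Of 3 tested oxysterol enzymes 1, *Cyp27a1*, which makes 27-hydroxycholesterol, passed, beside 3.36% of all genes tested. It fell from 16.6 ± 3.18 to 9.90 ± 0.801 CPM (SD, n = 3 libraries each, log2 fold change -0.74, adjusted p = 0.0326, edgeR), and *Hsd3b7* had 0.15.

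All 7 tested genes in the list of further ABC transporters and apolipoproteins, which leaves out *Apoc1* and *Apoc2* of other lists, lay lower in Drp1 KO BMDMs, beside 9141 of all 18506 genes. Of these 7, 2 passed, beside 1.06% of all genes tested that passed and were lower. In DESeq2 3 passed and with the replicate block 3, beside 8.8% and 12% of the genes to which each gave an adjusted p. *Abca9* had 42.5, 35.4 and 36.7 CPM in WT libraries 1 to 3 and 25.5, 20.8 and 23.9 CPM in Drp1 KO libraries 1 to 3, a log2 fold change of -0.71 with a standard error of 0.119 (edgeR, adjusted p = 0.011). *Abca7*, a close relative of *Abca1* that moves phospholipid, fell from 19.4 ± 1.32 to 13.6 ± 0.689 CPM (SD, n = 3 libraries each, log2 fold change -0.51, adjusted p = 0.0401, edgeR). *Abca3*, the lipid transporter of lamellar bodies, had -0.17 (adjusted p = 0.385, edgeR). Of 3 tested fatty acid–binding proteins besides *Fabp4* and *Fabp5*, none passed with edgeR, limma-voom or DESeq2 and none had an unadjusted p under 0.05, with log2 fold changes of -0.09 for *Fabp3* and 0.03 for *Fabp7*. The calls for *Msr1*, *Abhd5*, *Mertk*, *Cyp27a1* and *Abca7* ended, as that for *Abca1* did, whenever WT library 2 or 3 or Drp1 KO library 2 or 3 was left out. With a library left out their adjusted p reached 0.231, 0.18, 0.118, 0.141 and 0.193 in that order (edgeR), while the log2 fold changes kept their sign. *Abca7* was also lost without WT library 1 (adjusted p = 0.0518) and *Abca9* without Drp1 KO library 2 (adjusted p = 0.0565, edgeR). With length-scaled counts *Msr1*, *Cyp27a1* and *Abca7* had an adjusted p of 0.0817, 0.0724 and 0.0859 (edgeR).

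**Figure D5:**
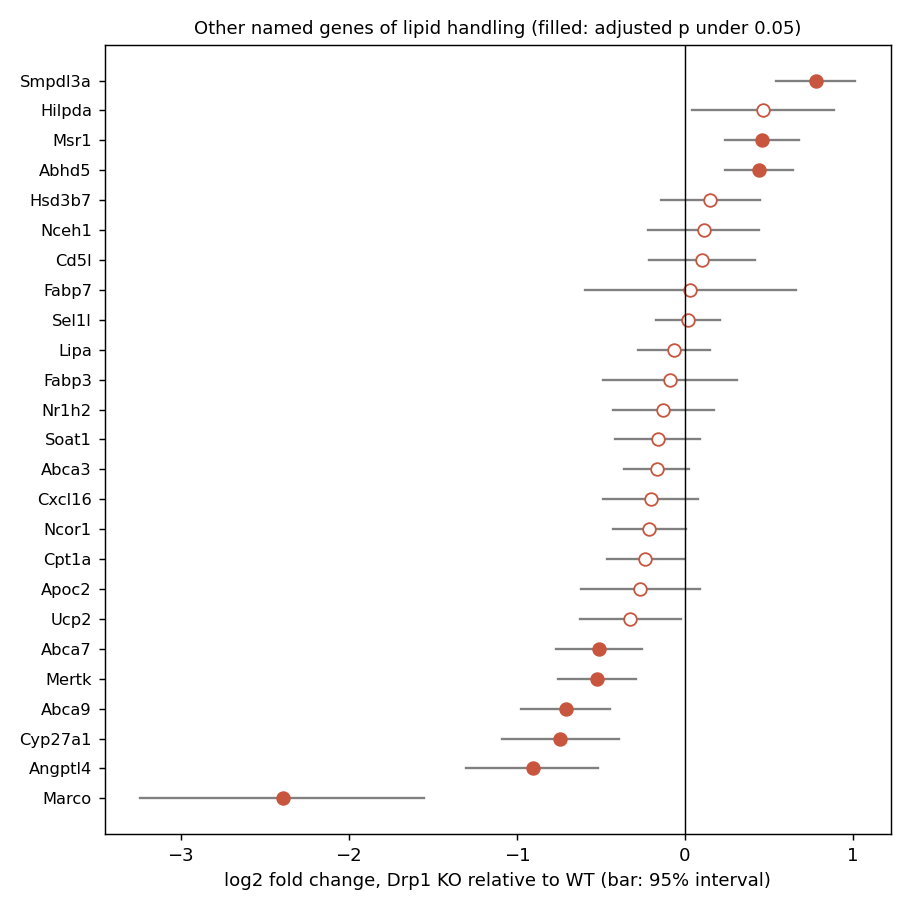
Fitted log2 fold change of Drp1 KO against WT BMDMs (horizontal axis) with its 95% interval for the named genes of the other lipid lists, filled where the edgeR adjusted p is under 0.05. Smpdl3a, Msr1 and Abhd5 lie to the right of 0, and Abca7, Mertk, Abca9, Cyp27a1, Angptl4 and Marco to the left, with Marco farthest at -2.39.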

How the data were processed

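RNA of WT and Drp1 KO BMDMs after 8 h of HSS was sequenced in 3 libraries each. The authors quantified the reads with kallisto 0.46.1 against Ensembl cDNA of GRCm39 and deposited 1 table per library, with estimated counts and TPM for 116873 transcripts. The deposited estimated counts are fractional and unscaled. By identifier 99.4% of the transcripts matched GENCODE genes of GRCm39, and counts were summed by gene and rounded. An effective length above the length itself was listed for 17986 transcripts in 1 library or more, which touches the TPM values and the length-scaled counts.

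Genes with at least 10 counts in total were tested with edgeR 4.0.16 (R 4.3.3): TMM normalization, quasi-likelihood test, genotype only, Benjamini-Hochberg adjustment over all genes. Standard errors were taken as |log2 fold change| over the root of the F statistic. The floor of 3 counts was 0.0917 to 0.136 CPM and covers counting error only. Exact permutation tests used log2(CPM + 1). The alternatives were RLE size factors, library size only, filterByExpr, no filter beyond 1 count, DESeq2 1.42.0, limma-voom (limma 3.58.1), length-scaled counts, the replicate number as a block, and leaving out each library. Same-numbered libraries deviated together (r = 0.547, 0.223 and 0.374 over 12248 genes averaging 1 CPM or more, against -0.496 to 0.344 for other pairs), so the fit with the replicate number as a block is given beside results it changes, on the evidence of the data only. The reported tests are from the fit without it. The scripts were tested on simulated data.

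The 10 genes and the lists were chosen with earlier results of these data known. Named besides them were, per list, up to 4 genes with an adjusted p under 0.05 and the 2 with the highest mean TPM. Annotation and promoter windows are GENCODE and GRCm39, and near-identical copies were sought at 90% identity or more over 200 bases.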

Additional observations from a re-analysis of the deposited data

How the results depend on the processing

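With other settings, the number of genes past an adjusted p of 0.05 was 1065 with no filter beyond 1 count, 1155 with DESeq2 and 2212 with the replicate block, in place of 621, and 181 to 904 with a library left out. Of the 10 lipid genes, 2 passed with no filter beyond 1 count, 2 with DESeq2, 5 with the replicate block and 0 to 3 with a library left out, in place of 1. By the study's criteria 5 were called with length-scaled counts and 2 to 4 with a library left out, in place of 3, while among all genes the counts were 2532 and 1935 to 2771, in place of 2345. *Abcg1* was among them in 1 of the 8 other settings that kept all libraries and *Fabp4* in all 8. Of the other lipid genes 17 passed with DESeq2, 24 with the replicate block and 1 to 15 with a library left out, in place of 9. The cause was not tested.

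Of 504 log2 fold changes of the 36 named genes under the 14 other settings, 446 kept their direction and side of the threshold, 34 lost a call, 11 gained one and 13, of 6 genes, changed sign, none of them past the threshold. Those with a library left out were *Cd36* (-0.0717 to 0.151), *Lpl* (-0.129 to 0.0718), *Fabp5* (-0.0598 to 0.169), *Sel1l* (-0.0125 to 0.0315), *Nceh1* (-0.00864 to 0.299) and *Fabp7* (-0.164 to 0.228). *Sel1l* was also reversed with length-scaled counts (-0.15), and *Fabp7* with limma-voom (-0.00847) and length-scaled counts (-0.0342). Scaling alternatives moved the median of all genes by -0.0122 at most. The replicate block changed the call of *Abcg1*, *Apoe*, *Fabp4*, *Pparg*, *Hilpda* and *Ucp2* and of no other named gene. Leaving out a library leaves a group with 2, and the estimated counts carry no error for the assignment of reads to transcripts.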
